A study of Mus musculus with 37 samples.

Results

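The microglia and macrophage genes described here are 34 genes chosen by symbol as a module of brain macrophage transcripts, and their rows were found in both hemispheres by Ensembl identifier. All 34 matched, of 21975 genes in each hemisphere's table. The libraries were made from astrocytes, the support cells of the nervous tissue, which the study took from dissociated cortex by means of bead-bound antibody to ACSA-2, an antigen on their surface. Microglia are not among the cells that the beads were meant to hold.

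All mice were wild type, male CD1 animals by the methods of the study, although the sample labels give the strain as CD31. Injured mice received a severe unilateral controlled cortical impact (CCI), sham mice a craniectomy without impact, and all carried EEG electrodes for seizure monitoring until the cortex was taken 4 months after surgery. Injured mice were labelled PTE+ if they had developed post-traumatic epilepsy and PTE- if not. The ipsilateral (injured side) libraries numbered 4 in PTE+, 10 in PTE- and 5 in sham mice, and the contralateral libraries 4, 9 and 5. The 37 libraries came from 20 mice, of which 17 gave both hemispheres (3 PTE+, 9 PTE- and 5 sham), and the mouse's name in the labels joins the libraries. Each library was from 1 hemisphere of 1 mouse.

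Microglia are the resident macrophages of the brain parenchyma. They depend on the receptor CSF1R and the transcription factor PU.1 (gene Spi1), sense nucleotides through P2RY12 and neuronal fractalkine through CX3CR1, and make the 3 chains of complement C1q. The receptor TREM2 signals through the adaptor TYROBP, and is known for its part in the response of microglia to damage and debris. Border macrophages of the meninges and vessel walls are a separate population, marked by Mrc1, Pf4 and Cd163.

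PU.1 is known to bind purine-rich DNA with a GAGGAA core. In the 250 bases before the start of the gene (RefSeq, GRCm38.p6), GAGGAA on either strand was found in 16 of the 25 members with an entry (64%), and in 7639 of 32851 promoter windows of all genes (23.3%). The longer GAGGAAGT, which contains it, was in 2 of the 25 (8%, C1qc and Pf4) and in 2.44% of all windows. The composite ETS-IRF element that PU.1 and IRF8 can bind jointly was in 0 of the 25 and in 2.3% of all windows, and TATAAA was in 5 of the 25 (20%) and in 12.4%. A member with several windows counted if any of them held the letters, while for all genes each window was counted by itself. The shares of members and of all windows are therefore not in the same unit. These counts describe letters in a window and do not show binding. The 5 windows shown hold the motif, hold no annotated exon, and belong to a C1q chain, the receptor Trem2, the member that followed the others most closely on the injured side (Cd53), a lysosomal member and a border macrophage member. Capitals mark GAGGAA or GAGGAAGT, or its reverse complement.
C1qb, chr4:136886201-136886450, minus strand: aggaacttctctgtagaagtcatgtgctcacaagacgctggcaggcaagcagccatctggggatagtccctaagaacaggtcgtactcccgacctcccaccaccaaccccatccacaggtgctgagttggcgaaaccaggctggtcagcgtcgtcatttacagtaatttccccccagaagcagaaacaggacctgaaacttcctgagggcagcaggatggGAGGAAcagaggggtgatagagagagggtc
Trem2, chr17:48346151-48346400, plus strand: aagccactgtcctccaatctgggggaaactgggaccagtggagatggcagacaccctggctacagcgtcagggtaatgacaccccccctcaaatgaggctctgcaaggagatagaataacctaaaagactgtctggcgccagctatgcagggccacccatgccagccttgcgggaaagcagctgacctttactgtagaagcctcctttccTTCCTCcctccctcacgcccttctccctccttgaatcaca
Cd53, chr3:106790150-106790399, minus strand: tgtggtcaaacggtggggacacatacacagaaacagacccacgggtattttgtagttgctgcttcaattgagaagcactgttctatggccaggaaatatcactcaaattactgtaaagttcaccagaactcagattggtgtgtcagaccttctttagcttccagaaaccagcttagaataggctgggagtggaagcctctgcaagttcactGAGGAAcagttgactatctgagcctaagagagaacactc
Cd68, chr11:69666171-69666420, minus strand: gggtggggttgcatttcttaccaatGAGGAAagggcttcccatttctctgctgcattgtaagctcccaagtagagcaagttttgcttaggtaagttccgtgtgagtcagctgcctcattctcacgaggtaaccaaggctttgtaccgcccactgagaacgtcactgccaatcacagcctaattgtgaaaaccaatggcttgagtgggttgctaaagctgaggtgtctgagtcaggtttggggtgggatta
Pf4, chr5:90772185-90772434, plus strand: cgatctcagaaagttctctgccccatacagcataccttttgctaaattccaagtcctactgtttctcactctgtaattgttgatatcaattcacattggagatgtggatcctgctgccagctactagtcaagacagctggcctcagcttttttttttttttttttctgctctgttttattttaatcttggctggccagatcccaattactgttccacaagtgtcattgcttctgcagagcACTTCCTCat

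Levels are given as TPM, a length-corrected measure whose sum is fixed, so that the depth behind a value is unknown and a level is relative to the rest of its library. The 34 members together made up 108 to 1564 TPM of a library, or 0.0108% to 0.156% of the total. For comparison, 10 astrocyte markers summed to 5610 to 11805 TPM. In bulk RNA, fewer cells of a type and less RNA per cell cannot be told apart. The members with the highest mean over the 37 libraries were Cd74, the invariant chain of MHC class II (48.4 TPM), Ctss, a lysosomal protease (46.8 TPM), Lyz2, lysozyme (43.4 TPM), Tyrobp (41.2 TPM), C1qb (40.8 TPM), C1qa (31.7 TPM) and P2ry12 (27.7 TPM). Laptm5, C1qc, Selplg, Fcer1g, Csf1r, Tmem119, Aif1 and Cd68 had means from 25.3 down to 11.5 TPM.

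The 11 members Cx3cr1, Ly86, Fcgr3, Siglech, Trem2, Pf4, Olfml3, Fcrls, Cd53, Irf8 and Gpr34 had means from 9.55 down to 4.15 TPM. P2ry13 and Spi1 had means of 3.39 and 3.32 TPM, Itgb2 and Itgam of 1.99 and 1.45 TPM, and Csf3r, the receptor of granulocyte colony-stimulating factor, of 1.23 TPM. The lowest were the pan-leukocyte phosphatase Ptprc (0.683 TPM) and the border macrophage receptors Mrc1 (0.663 TPM) and Cd163 (0.288 TPM). Itgam, which encodes CD11b and served the study as a marker of cells to be left behind by the beads, was among the lowest members, while P2ry12 was above 0 in all 37 libraries, and C1qa and Tyrobp were at 4.7 TPM or more in 36. Itgam shares 68.7% of its exonic bases with the overlapping gene Gm49368 on its own strand, so its reads could be divided between them. The library kit does not mark strand, and 15.1% of the exonic bases of Csf1r overlap Hmgxb3 on the opposite strand. Lyz2 and Fcgr3 have close paralogs, and their levels depend on how shared reads were assigned.

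**Figure D1:**
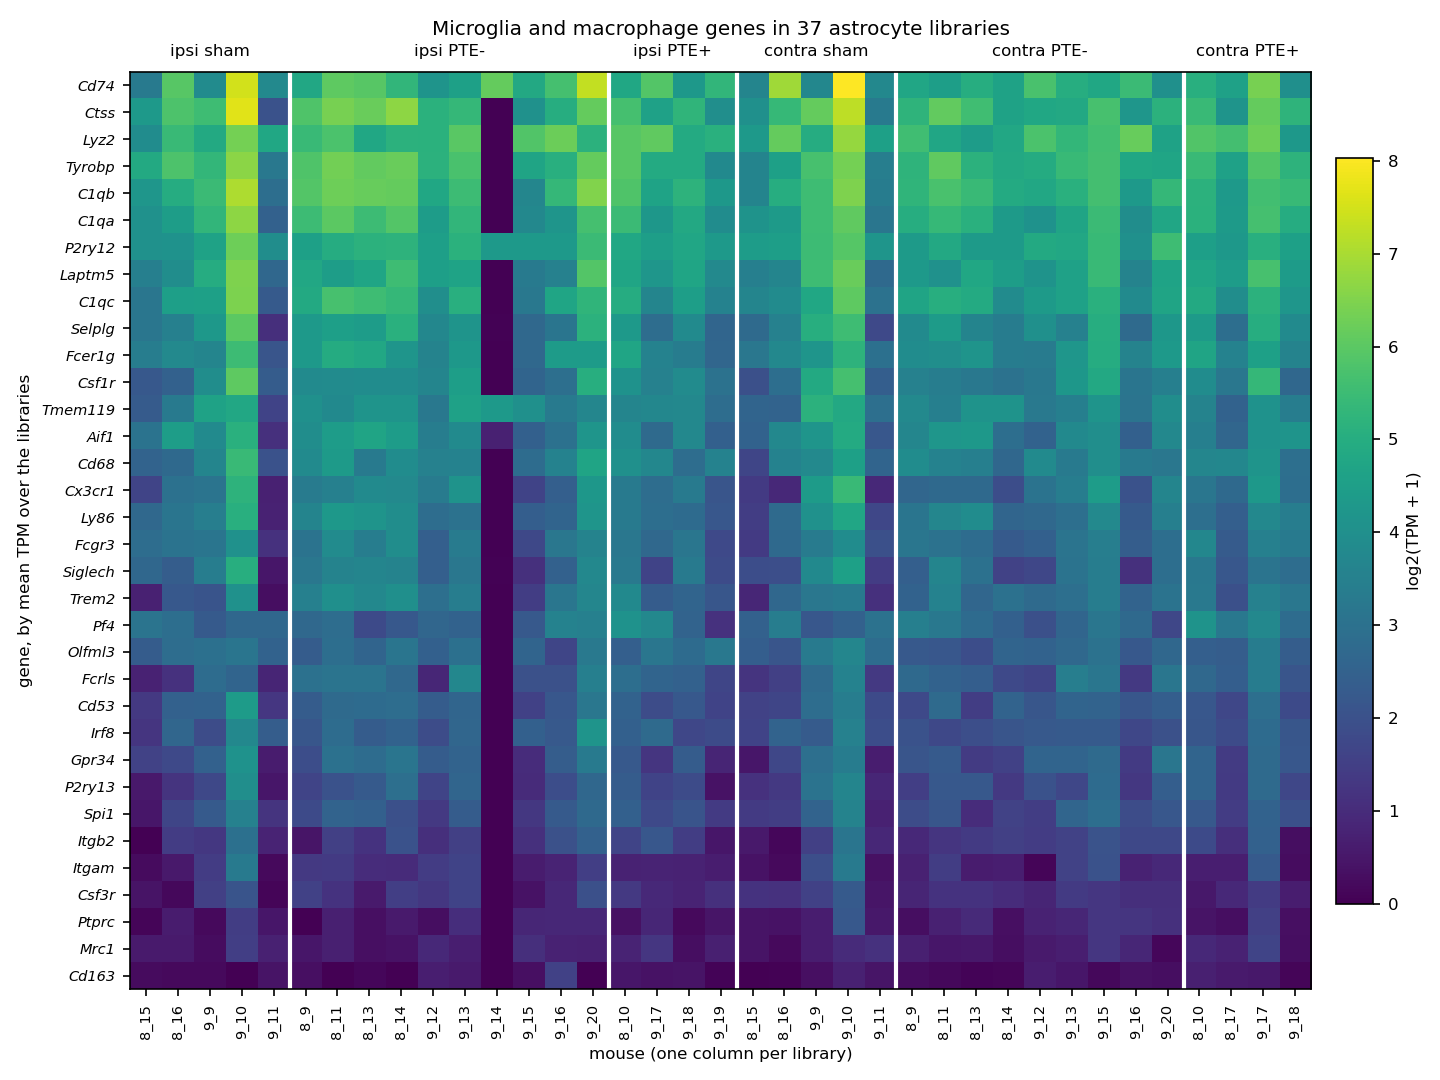
Log2(TPM + 1) of the 34 members (rows, by mean TPM) in the 37 libraries (columns, by hemisphere and group), shown as colour. Sham mouse 9_10 has the highest summed level in each hemisphere (1564 and 1380 TPM), and 27 members are at 0, the lowest colour, in the ipsilateral library of PTE- mouse 9_14.

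The ipsilateral library of PTE- mouse 9_14 stood apart from the rest. It had 10727 genes above 0 TPM, against 15599 to 18534 in the other 36. In it 27 of the 34 members were listed at 0, among them Cx3cr1, Csf1r, the 3 C1q chains, Tyrobp and Lyz2, while P2ry12 was listed at 19.3 TPM, Tmem119 at 19.5 TPM and Cd74 at 68.9 TPM. Of 6164 genes with at least 10 TPM in each of the other 36 libraries, 363 were listed at 0 there, and in no other library was such a gene at 0 when set against the rest. Its zeros are therefore given as listed and not as absence, it was kept in the main fits, and for the comparisons that use it the counts and medians of the members are given also without it. It had no contralateral library. Med12l, whose gene lies over P2ry12 and P2ry13 on the opposite strand, was at 26.4 TPM in that library, the highest of all. It shares 9 exonic bases with P2ry12 (0.353% of those of P2ry12) and 0 with P2ry13. Over the other 36 libraries the deviations of Med12l and P2ry12 from their group means had a Pearson r of 0.0264. The part of Med12l reads in the P2ry12 value of mouse 9_14 was not tested.

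The second feature of the whole module was the spread between mice. The highest level over the lowest, taken over the other 36 libraries, was 5.2 for P2ry12, 5.42 for Olfml3 and 7.63 for Lyz2, but 12.1 for Tyrobp, 21.5 for C1qa, 22.6 for Csf1r, 63.9 for Cx3cr1, 71.7 for Trem2, 78.2 for Siglech and 127 for Itgam. Sham libraries spanned the widest range. The summed TPM of the members in sham mice had a median of 442 TPM on the ipsilateral side (124 in mouse 9_11 to 1564 in mouse 9_10) and of 457 TPM on the contralateral side (165 to 1380, in the same mice). In PTE- mice it had a median of 549 TPM ipsilaterally (108 in mouse 9_14, 265 in the next lowest, 904 in mouse 9_20) and of 428 TPM contralaterally (311 to 643). In PTE+ mice the median was 396 TPM ipsilaterally (251 to 583) and 439 TPM contralaterally (304 to 777). The groups overlapped in both hemispheres, and the range of the 5 sham mice enclosed all libraries of injured mice except the ipsilateral one of mouse 9_14.

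**Figure D2:**
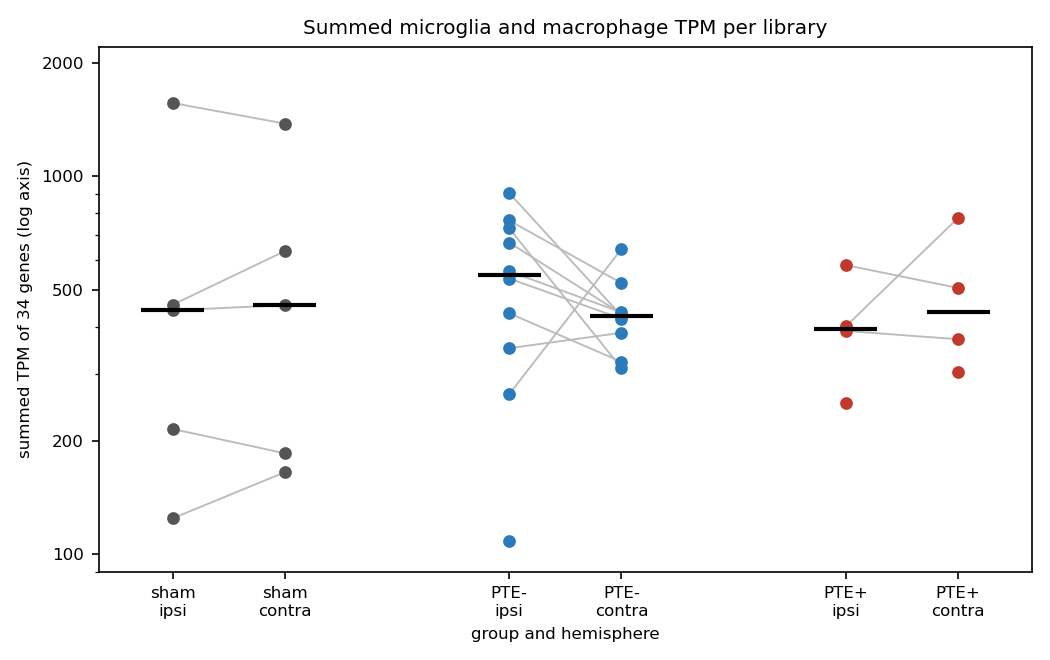
Summed TPM of the 34 members in each library (points, log axis) by hemisphere and group, with medians (black bars) and lines joining the hemispheres of a mouse. The 5 sham mice spread from 124 to 1564 TPM ipsilaterally, and injured mice lie within that range apart from PTE- mouse 9_14 at 108 TPM.

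As the mean of log2(TPM + 1) over the members, the level was 2.94 ± 0.43 (SD, n = 4) in PTE+ and 2.92 ± 1.12 (SD, n = 5) in sham mice ipsilaterally, and 3.31 ± 0.47 (SD, n = 9) in PTE- mice without mouse 9_14, which stood at 0.46. Contralaterally it was 3.18 ± 0.53 (SD, n = 4) in PTE+, 3.06 ± 0.32 (SD, n = 9) in PTE- and 2.998 ± 1.02 (SD, n = 5) in sham mice. The means of the groups were closer to each other than the SD of the sham group in either hemisphere.

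The first comparison asked whether injury altered these genes in the ipsilateral preparation 4 months later, with PTE+ and PTE- mice pooled against sham mice. No member met the thresholds of the study (a fold change of 1.2 or more together with p below 0.05 before adjustment) among the 26 that passed the filter of a mean above 5 TPM in at least 1 group. In the same fit 1.62% of all 10434 tested genes were called. "Called" stands for these thresholds throughout, and adjusted p-values are Benjamini-Hochberg values over all tested genes. The smallest unadjusted p among the members was 0.0984 (limma, adjusted p = 0.9997), for Trem2, and 0 members had an unadjusted p under 0.05. With all libraries, 20 members lay above and 14 below 0, with a median log2 fold change of 0.03 (−0.01 over all tested genes) and a range from −0.23 for Olfml3 to 1.03 for Trem2. This tally rested on single libraries. It was 30 above and 4 below without PTE- mouse 9_14 (median 0.26), 32 above and 2 below without sham mouse 9_10 (median 0.48), and 6 above and 28 below without sham mouse 9_11 (median −0.22). Without sham mouse 8_15 it was 7 above and 27 below (median −0.11).

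Trem2 lies at chr17:48346401-48354147 on the plus strand (GRCm38). Ipsilateral Trem2 was 0.22, 0.68, 3.29, 3.65 and 15.8 TPM in the 5 sham mice, and ran from 1.78 to 14.98 TPM over the 13 injured mice other than mouse 9_14, where it was 0.01 TPM. In 12 of 14 injured mice it was above the sham median, and in 0 of 14 above every sham mouse, sham mouse 9_10 being the highest of all. The means were 8.30 TPM in injured and 4.72 TPM in sham mice, so Trem2 passed the filter only through the injured group. The log2 fold change was 1.03 ± 0.60 (SE, two-sided exact permutation p = 0.123 over 11628 splits). Without mouse 9_14 it was 1.26 (limma p = 0.0164) and without sham mouse 9_10 it was 1.58 (limma p = 0.0145). Leaving out mouse 9_14 brought the called members to 2 (Fcrls and Trem2), where 3.83% of all tested genes were called. Leaving out sham mouse 9_10 brought them to 4 (Cd74, P2ry12, Tmem119 and Trem2), where 1.91% were. Quantile normalization called Trem2 alone among the members (2.14%). Fcrls too passed the filter only through the injured group, with means of 5.35 and 2.78 TPM over all libraries.

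The other members named as representatives of their roles differed by less than their error. P2ry12 was 14.5, 15.6, 15.9, 23.9 and 75.2 TPM in sham mice and 18.8 to 43.3 TPM (median 24.5) in injured mice, so that 14 of 14 injured mice lay above the sham median and 0 above the highest sham mouse (log2 fold change 0.15 ± 0.29, limma p = 0.61). Cx3cr1 was 0.67, 2.11, 7.07, 7.61 and 35.97 TPM in sham mice, and 2.04 to 18 TPM in the 13 injured mice other than mouse 9_14 (0.24 ± 0.63, limma p = 0.701). The log2 ratio of group mean TPM for Cx3cr1 had the other sign, −0.28, with sham mouse 9_10 at 35.97 TPM.

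Csf1r was 3.64, 4.02, 4.61, 14.5 and 64.7 TPM in sham mice, and C1qa 4.7, 15.9, 21.3, 38.3 and 101 TPM. Over the 13 injured mice other than mouse 9_14, Csf1r ran from 5.05 to 31.9 TPM and C1qa from 12.6 to 64.0 TPM. Both ranges lay within that of the sham mice, as did those of Cd68 (6.23 to 25.0 TPM, sham 3.08 to 42.2 TPM), Lyz2 (26.6 to 74.9 TPM, sham 14.1 to 81.0 TPM) and Tyrobp (12.9 to 79.9 TPM, sham 8.21 to 99.3 TPM). Csf1r differed by 0.08 ± 0.63 (limma p = 0.895), C1qa by 0.02 ± 0.73 (limma p = 0.981), Tyrobp by −0.11 ± 0.74 (limma p = 0.884), Cd68 by 0.13 ± 0.57 (limma p = 0.819) and Lyz2 by 0.04 ± 0.68 (limma p = 0.956). Cd74 was 9.03, 12.8, 13.7, 60.7 and 178 TPM in sham mice and 16.7 to 155 TPM (median 38.1) after injury. All 14 injured mice were above its sham median of 13.7 TPM, and the log2 fold change was 0.47 ± 0.55 (limma p = 0.397). Itgam and Mrc1 did not pass the filter, and their exact permutation p-values were 0.674 and 0.708 for log2 fold changes of −0.17 and −0.07. Itgam was 8.86 TPM in sham mouse 9_10 and at most 2.06 TPM in the injured mice.

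The second comparison set PTE+ against PTE- mice on the ipsilateral side. Again 0 members were called, of 24 tested, where 0.573% of 10473 tested genes were. The median log2 fold change of the members was −0.14 (0.12 over all tested genes), with 24 members below 0 and 10 above, from −0.58 for Gpr34 to 0.56 for Lyz2. The smallest exact permutation p over the 34 members was 0.118, for Tmem119 (−0.44 ± 0.27, 1001 splits). The standard errors had a median of 0.63. Without mouse 9_14 the median was −0.41 (0.08 over all tested genes) and 1 member was called, Tyrobp, at −0.80 (limma p = 0.037), where 1.89% of all tested genes were. The sign of the median turned without PTE+ mouse 9_19 (0.08, 21 members above 0) and with a pseudocount of 0.1 in place of 1 (0.11, 21 above 0). With the first digit of each mouse's name in the model 18 members were above 0.

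Tyrobp was 12.9, 29.3, 29.4 and 60.3 TPM in the 4 PTE+ mice. In the 9 PTE- mice other than 9_14 it ran from 24.6 to 79.9 TPM with a median of 55.9 TPM, so that 1 of 4 PTE+ mice lay above it. With mouse 9_14 in the fit the log2 fold change was −0.23 ± 0.89 (limma p = 0.80). C1qa was 13.9, 18.1, 27.7 and 43.9 TPM in PTE+ mice, against a median of 44.3 TPM (12.6 to 64.0) in those 9 PTE- mice, and Trem2 was 3.42, 4.1, 5.04 and 13.2 TPM against a median of 10.3 TPM (1.78 to 14.98). Without mouse 9_14 their log2 fold changes were −0.52 (limma p = 0.216) and −0.59 (limma p = 0.166). The PTE+ and PTE- ranges overlapped for each of these genes.

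Cx3cr1 was 3.3, 6.28, 8.87 and 8.94 TPM in PTE+ mice, all 4 below the PTE- median of 9.69 TPM, with a log2 fold change of −0.12 ± 0.65 (limma p = 0.85). P2ry12 differed by −0.20 ± 0.23 (limma p = 0.416), Csf1r by 0.20 ± 0.66 (limma p = 0.77), Cd68 by 0.18 ± 0.62 (limma p = 0.777), Lyz2 by 0.56 ± 0.84 (limma p = 0.516) and Cd74 by −0.41 ± 0.47 (limma p = 0.398). Without mouse 9_14 Lyz2 stood at 0.01, and Csf1r and Cd68 at −0.18 and −0.19. Itgam lay between 0.57 and 0.75 TPM in the PTE+ mice and had a median of 1.28 TPM in PTE- mice (exact permutation p = 0.228).

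**Figure D3:**
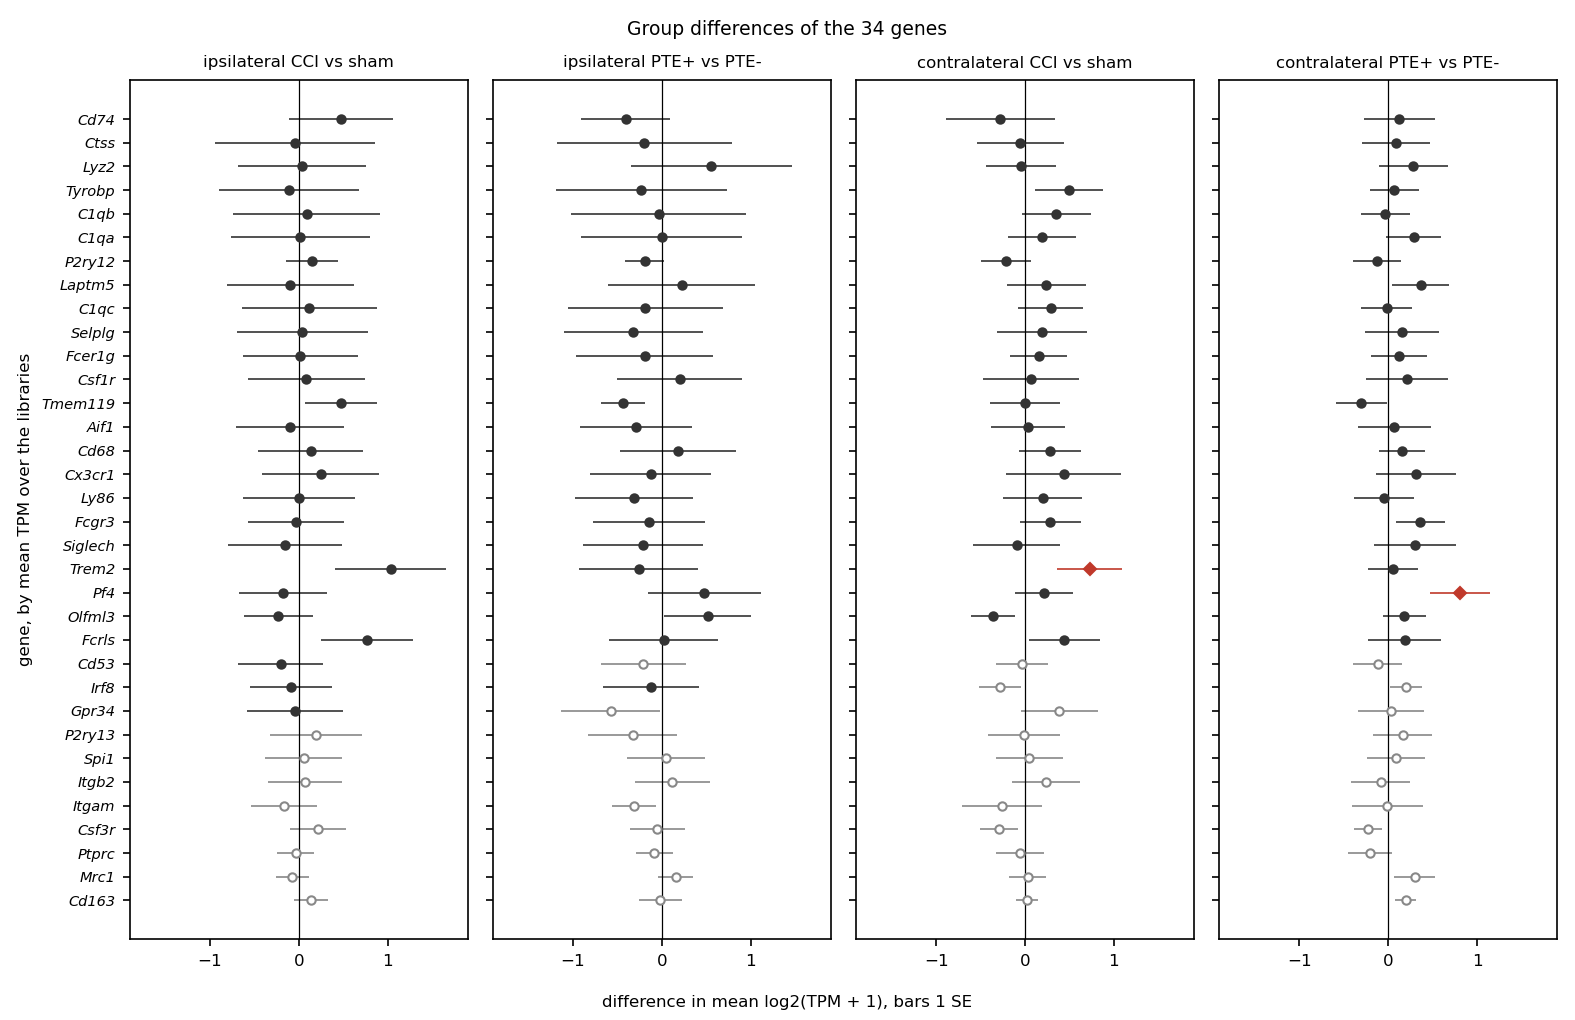
Log2 fold change on the log2(TPM + 1) scale (points) with its SE from the fit without the filter (bars) for the 34 members in the 4 comparisons of groups, with CCI vs. sham and PTE+ vs. PTE- in each hemisphere. Contralateral Trem2 after CCI (0.73) and contralateral Pf4 in PTE+ mice (0.80) are the members called (red diamonds), and open points did not pass the filter.

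On the contralateral side, the comparison of injured with sham mice called 1 of 23 tested members, Trem2, against 4.05% of 10556 tested genes in either direction and 0.54% in the direction of higher levels after injury. That last share depended on the scaling, and was 2.42% with each library centred on its median and 1.89% with quantile normalization, both of which also called Trem2. Trem2 was 0.83, 1.16, 5.36, 8.12 and 8.9 TPM in the 5 sham mice, and ran from 2.93 to 10.7 TPM with a median of 6.96 TPM in the 13 injured mice. The injured libraries overlapped the upper 3 sham libraries, while sham mice 8_15 and 9_11 lay below all of them. The means were 7.11 ± 2.38 TPM (SD, n = 13) and 4.87 ± 3.78 TPM (SD, n = 5). Trem2 therefore entered the test only through the injured group, in which it was higher. The log2 fold change was 0.73 ± 0.34 (limma p = 0.0465, adjusted p = 0.978). The exact permutation test gave p = 0.0557 over 8568 splits. In 9 of 13 injured mice Trem2 was above the sham median and in 3 above every sham mouse. The call was absent in each fit that left out 1 of PTE+ mice 8_10, 9_17 and 9_18, PTE- mice 8_11, 8_14, 9_13, 9_15 and 9_20, or sham mice 8_15 and 9_11. It was also absent without the filter on TPM, in a fit of all 3 groups and with array weights, at log2 fold changes of 0.73, 0.73 and 0.70.

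The 34 members had a median log2 fold change of 0.06 (−0.07 over all tested genes), with 22 above 0 and the lowest at −0.36 for Olfml3. Without sham mouse 9_10 the median was 0.45 with 32 above 0. Without sham mouse 9_11 it was −0.15 and without sham mouse 8_15 −0.10, each with 23 below 0. Tyrobp, the adaptor of TREM2, was 9.82, 11.2, 22.7, 50.6 and 81.3 TPM in sham mice and 23.5 to 66.8 TPM (median 35.6) after injury, above the sham median in 13 of 13 injured mice (0.49 ± 0.35, limma p = 0.18). Cx3cr1 was 0.91, 0.92, 1.59, 20.3 and 42.8 TPM in sham mice and 2.77 to 20.7 TPM (median 6.51) after injury, again above the sham median in 13 of 13 (0.43 ± 0.59, limma p = 0.472). Cd74 was 11.5, 12.1, 12.4, 117 and 261 TPM in sham mice, with the 13 injured mice between 14.9 and 83.4 TPM, in the gap between the lower 3 and the upper pair of sham values (−0.28 ± 0.56, limma p = 0.62).

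P2ry12 differed by −0.22 ± 0.26 (limma p = 0.419), Csf1r by 0.07 ± 0.49 (limma p = 0.891), C1qa by 0.19 ± 0.35 (limma p = 0.588), Cd68 by 0.28 ± 0.33 (limma p = 0.399) and Lyz2 by −0.04 ± 0.37 (limma p = 0.906). Without sham mouse 9_10 the count of called members was 6 (2.94% of all tested genes), with Trem2 at 0.996, Tyrobp at 0.90, C1qb at 0.77, C1qc at 0.73, Cx3cr1 at 1.14 and Fcrls at 0.81, and without sham mouse 8_16 it was 2 (6.83%). C1qa was 7.81, 16.4, 20.02, 45.4 and 65.7 TPM in sham and 14.5 to 49.4 TPM in injured mice, and Lyz2 19.3, 22.9, 30.3, 70.0 and 107 TPM in sham and 18.6 to 75.4 TPM in injured mice. Csf1r was 2.87 to 49.9 TPM in sham and 5.41 to 39.6 TPM in injured mice, Cd68 2.17 to 22.7 TPM and 5.4 to 16.7 TPM, Itgam 0.14 to 8.76 TPM and 0.07 to 3.85 TPM, and Mrc1 0.14 to 1.19 TPM and 0.11 to 2.13 TPM. The groups overlapped for each of these members.

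The level of the 10 homeostatic members, a part of the module, can be held fixed. In a fit with the mean log2(TPM + 1) of the 10 homeostatic members of each library as a covariate (Fcrls, Olfml3 and P2ry12 are among those 10), Trem2 had a log2 fold change after CCI of 0.85 ± 0.25 (limma p = 0.00267, adjusted p = 0.975) ipsilaterally and 0.66 ± 0.23 (limma p = 0.00807, adjusted p = 0.927) contralaterally. The same fits called Fcrls ipsilaterally (0.63) and Tyrobp (0.42), Olfml3 (−0.40) and P2ry12 (−0.27) contralaterally. Since Fcrls, Olfml3 and P2ry12 are part of the covariate, their values are in part set by the adjustment, and no conclusion is drawn from them. With this covariate 2.66% and 4.05% of all tested genes were called. In the comparisons of PTE+ with PTE- mice it gave 0 members ipsilaterally (2.08% of all tested genes) and 1, Pf4, contralaterally (2.94%). Without mouse 9_14 the ipsilateral covariate fits called Trem2 (0.89 ± 0.23, limma p = 0.0011, adjusted p = 0.426) and Fcrls (0.69) after CCI (4.85% of all tested genes) and 0 members for PTE+ against PTE- (1.27%).

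The contralateral comparison of PTE+ with PTE- mice called 1 of 23 tested members, Pf4, where 2.79% of 10423 tested genes were called and 1.95% in the higher direction. With median centring 148 genes were called higher and 213 lower (1.42% higher), and with quantile normalization 136 and 242 (1.3% higher), against 203 and 88 as deposited. Pf4 encodes the chemokine platelet factor 4, a product of platelets and megakaryocytes that border macrophages also make, and lies at chr5:90772435-90773383 on the plus strand (GRCm38). It was 6.14, 8.31, 12.6 and 16.5 TPM in the 4 PTE+ mice, and ran from 2.3 to 10.1 TPM with a median of 5.65 TPM in the 9 PTE- mice. All 4 PTE+ mice were above the PTE- median and 2 of 4 above every PTE- mouse. The means were 10.9 ± 4.62 TPM (SD, n = 4) and 5.86 ± 2.54 TPM (SD, n = 9), with a log2 fold change of 0.80 ± 0.32 (limma p = 0.023, adjusted p = 0.999) and an exact permutation p of 0.0392 over 715 splits. Leaving out PTE+ mouse 8_10 or 9_17 ended the call, as did quantile normalization (0.70). Sham mice, at 3.5 to 9.59 TPM, had a mean of 5.91 ± 2.46 TPM (SD, n = 5).

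The other border macrophage members did not pass the filter. Mrc1 was 0.24, 0.71, 0.89 and 2.13 TPM in PTE+ and 0.11 to 1.39 TPM in PTE- mice (0.30, exact permutation p = 0.232), and Cd163 differed by 0.20 (exact permutation p = 0.141). On the other side of the brain Pf4 was 1.19, 4.89, 12.5 and 16.3 TPM in PTE+ mice, with a median of 5.04 TPM in PTE- mice (0.48 ± 0.61, limma p = 0.446), and for Pf4 the PTE+ effect differed between the sides by −0.33 ± 0.65 (limma p = 0.618). A further 9 border macrophage genes summed to 9.29 to 39.2 TPM (median 37.1) in contralateral PTE+ and 11.3 to 23.5 TPM (median 17.4) in PTE- libraries, and of the 3 that passed the filter 0 were called. Of 9 tested endothelial markers 2 were called higher, Tek (0.80 ± 0.32) and Pecam1 (0.78 ± 0.29), where 1.95% of all tested genes were. The 10 endothelial markers summed to 743 to 2434 TPM in PTE+ and 509 to 1384 TPM in PTE- libraries. Of 6 tested meningeal and fibroblast markers 1 was called higher, Slc47a1 (1.49 ± 0.48). For Tek, Pecam1 and Slc47a1 the adjusted p was 0.999 each (limma). The 8 meningeal and fibroblast markers summed to 84.7 to 226 TPM in PTE+ and 72.0 to 206 TPM in PTE- libraries. The part of these cells in the Pf4 value was not tested.

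The microglia members did not meet the thresholds in the contralateral cortex. Their median log2 fold change was 0.12 over the module and 0.05 over all tested genes, with 24 above 0. Without PTE+ mouse 9_17 the median over the members was −0.11, with 25 below 0. Trem2 differed by 0.05 ± 0.27 (limma p = 0.852), Tyrobp by 0.07 ± 0.25 (limma p = 0.781), P2ry12 by −0.12 ± 0.25 (limma p = 0.632), Cx3cr1 by 0.32 ± 0.41 (limma p = 0.45), Csf1r by 0.21 ± 0.42 (limma p = 0.618), C1qa by 0.29 ± 0.28 (limma p = 0.327), Cd68 by 0.15 ± 0.25 (limma p = 0.548), Lyz2 by 0.28 ± 0.35 (limma p = 0.431) and Cd74 by 0.13 ± 0.36 (limma p = 0.725). Itgam differed by −0.01 (exact permutation p = 0.993).

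**Figure D4:**
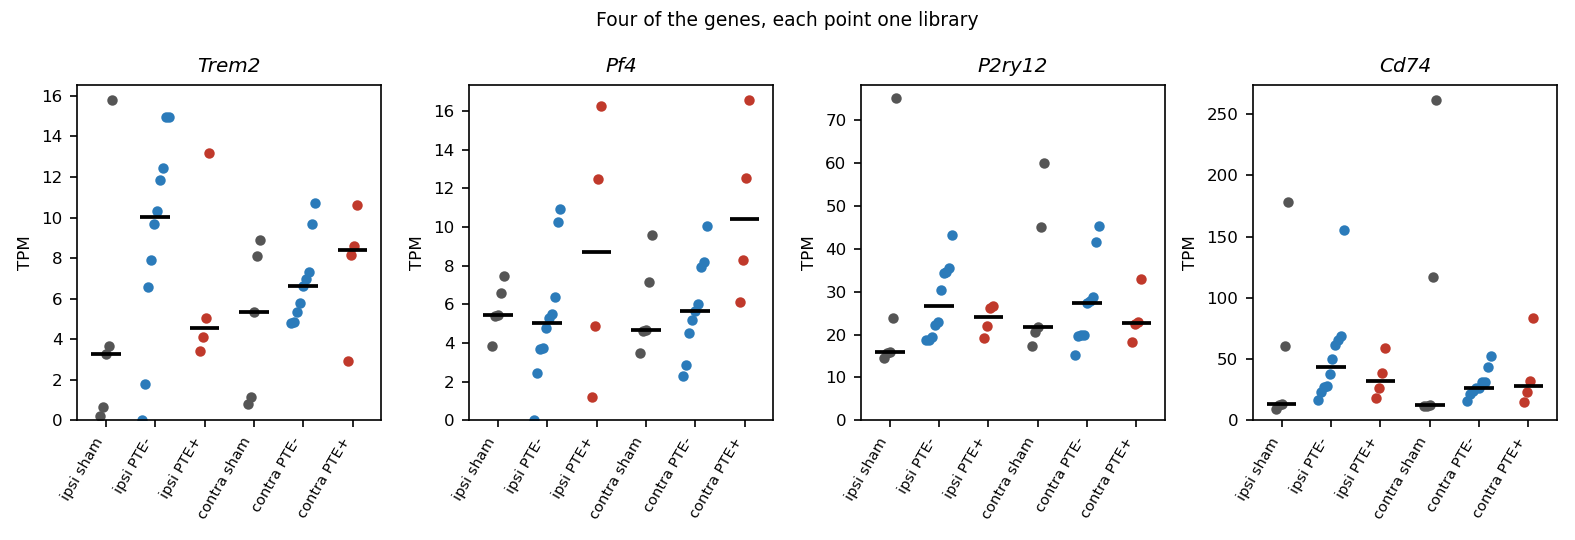
TPM of Trem2, Pf4, P2ry12 and Cd74 in each library (points, linear axis from 0) by hemisphere and group, with group medians (lines). Contralateral Pf4 lies between 6.14 and 16.5 TPM in the 4 PTE+ mice and between 2.3 and 10.1 TPM in the PTE- mice, and sham mouse 9_10 has the highest P2ry12 (75.2 and 59.9 TPM) and Cd74 (178 and 261 TPM) in each hemisphere.

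The impact was on 1 side, so the hemispheres of a group were also compared. In PTE- mice 0 of 24 tested members were called between all ipsilateral and all contralateral libraries, where 1.99% of 10374 tested genes were. The median log2 fold change was −0.06 (−0.05 over all tested genes), and 0.26 without mouse 9_14. It was 0.10 without mouse 9_15. Mice give paired libraries here, and with the mouse as a block, which leaves out mouse 9_14 since it has 1 library, 2 members were called: Tyrobp at 0.49 ± 0.20 (limma p = 0.0256, adjusted p = 0.468) and Irf8, a transcription factor of the macrophage lineage, at 0.54 ± 0.22 (limma p = 0.0297, adjusted p = 0.491). In that fit 5.95% of all tested genes were called. Leaving out mouse 9_14 without a block gave the same log2 fold changes and called the same pair of members (3.48% of all tested genes), so the calls came with the removal of that library. With all libraries and the mouse as a random effect (estimated correlation of 0.681) 0 members were called (4.66%), with Tyrobp at 0.31, and 31 of 34 members lay above 0 (median 0.15). Both genes were higher ipsilaterally in 8 of 9 mice, and the exact sign-flip permutation test over the 9 pairs gave p = 0.0273 for Irf8 and p = 0.0859 for Tyrobp. Without the block and with mouse 9_14, Tyrobp stood at −0.08 ± 0.59 (limma p = 0.899) and Irf8 at 0.28 ± 0.34 (limma p = 0.419).

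Ipsilateral Tyrobp in the 9 paired PTE- mice had a median of 55.9 TPM, against a contralateral median of 34.9 TPM (25.2 to 66.8). Irf8 ran from 2.24 to 3.86 TPM contralaterally, and reached 16.9 TPM in the ipsilateral library of mouse 9_20. Its means over all PTE- libraries were 5.14 TPM ipsilaterally and 3.15 TPM contralaterally, so it passed the filter only through the ipsilateral side. Mouse 9_15 went the other way for the module as a whole, with summed TPM of 265 ipsilaterally and 643 contralaterally, while mice 9_20 (904 and 428 TPM) and 8_14 (729 and 311 TPM) were higher on the injured side. The mean log2 level was higher ipsilaterally in 8 of 9 PTE- mice. Cd74 had the largest difference between hemispheres in PTE- mice without the block, 0.59 ± 0.33 (limma p = 0.0826).

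In PTE+ mice 0 of 23 tested members were called between hemispheres (1.62% of 10485 tested genes). Of the 34 members 29 were below 0, the median was −0.23 (0.03 over all tested genes), and the lowest was Selplg, the ligand of P-selectin, at −0.62. Without mouse 9_17 the members were 17 above and 17 below 0, and without mouse 9_19 they were 12 above and 22 below. The 3 PTE+ mice with both hemispheres allow no p below 0.25 by sign flips. Their summed levels were 583 and 507 TPM in mouse 8_10, 401 and 777 TPM in mouse 9_17 and 390 and 371 TPM in mouse 9_18, ipsilateral first. The libraries without a pair were at 251 TPM (ipsilateral, mouse 9_19) and 304 TPM (contralateral, mouse 8_17). In sham mice 0 of 24 tested members were called (1.19% of 10601 tested genes), with a median of −0.08 (−0.09 over all tested genes). With quantile normalization it was 0.06, and without mouse 9_9 or 9_11 18 and 17 members were above 0, against 13 with all mice. The smallest p that 5 pairs allow is 0.0625.

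The differences of the effects between hemispheres were tested in 1 fit of all 37 libraries. For the effect of CCI 0 of 26 tested members were called (1.3% of 10874 tested genes), with a median of −0.08 (0.05 over all tested genes) and 16 members above 0. Without mouse 9_14 the median was 0.15 with 26 above 0 and 0 called (2.52%), and with the mouse as a block, which leaves out each mouse with 1 library, it was 0.18 with 28 above 0. With the block 1 member was called, Lyz2 at 0.54 ± 0.21 (limma p = 0.0195, adjusted p = 0.75), where 6.2% of all tested genes were. Without the block Lyz2 stood at 0.08 ± 0.82 (limma p = 0.921), and without mouse 9_14 at 0.48 (limma p = 0.351). With the mouse as a random effect (estimated correlation of 0.633) it stood at 0.35 (limma p = 0.47), 0 members were called (5.97%) and the median was 0.06. The difference for Trem2 was 0.31 ± 0.73 (limma p = 0.679), so its values on either side were not shown to differ. For the effect of PTE+ 0 of 26 tested members were called (0.11% of 10874 tested genes), with 28 of 34 members below 0 and a median of −0.24 (0.08 over all tested genes). Without mouse 9_17 the tally was 19 above 0 and without mouse 9_19 18 above, while without mouse 9_14 the median was −0.57 (0 members called, 0.277%) and with the mouse as a block −0.55. In the main fits of the 9 comparisons 0 genes reached an adjusted p under 0.05 (limma). Among all fits, alternatives included, 0 members did, and the most genes that did in 1 fit were 14, between the hemispheres of PTE- mice with the mouse as a random effect.

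Weighting libraries by their agreement with their group (limma array weights) called 1 member, Trem2 (1.04), for ipsilateral CCI vs. sham (8.08% of tested genes), 1, Tyrobp (−0.75), for ipsilateral PTE+ vs. PTE- (4.21%), 1, Olfml3 (−0.52) and not Trem2, for contralateral CCI vs. sham (5.76%) and 2, Pf4 (1.09) and Fcgr3 (0.58), for contralateral PTE+ vs. PTE- (7.94%). Between hemispheres it called Irf8 (0.45) in PTE- mice (3.49%), Fcer1g (−0.93) in PTE+ mice (12.6%) and 0 members in sham mice (8.58%). It called 0 members for the difference of the CCI effect (11.1%) and of the PTE+ effect (4.55%) between hemispheres. Without mouse 9_14 the weighted fits called Trem2 (1.047) for ipsilateral CCI vs. sham (8.25%), Tyrobp (−0.77) for ipsilateral PTE+ vs. PTE- (4.09%), Irf8 (0.45) between hemispheres in PTE- mice (3.48%) and 0 members for the CCI (11.4%) and PTE+ effects (4.43%). The mouse block called 0 members between hemispheres in PTE+ (3.86%) and sham mice (6.91%) and for the PTE+ effect (2.63%). Without the filter, 21975 genes entered each fit, and Pf4 in contralateral PTE+ mice was the only member called, where 2.03% of those genes were. The share called among them was 1.68%, 0.787% and 3.11% in the first 3 comparisons of groups, and 1.62%, 1.25%, 1.49%, 1.53% and 0.437% in the comparisons of hemispheres (PTE-, PTE+ and sham mice, then the CCI and PTE+ effects).

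Across libraries the members followed each other. Deviations from the group means of log2(TPM + 1) were correlated for each member with the mean of the other 33. This is a description across libraries that share a closed total of TPM. The median Pearson r over the members was 0.895 ipsilaterally without mouse 9_14 (n = 18 libraries), 0.92 with it (n = 19), and 0.858 contralaterally (n = 18). It was above 0.8 for 22 members ipsilaterally without mouse 9_14 and for 25 contralaterally. The 3 C1q chains, whose genes lie side by side on chromosome 4 between positions 136880129 and 136898803 (GRCm38), had r of 0.944 to 0.954 (rho of 0.921 to 0.938) with each other over 36 libraries. P2ry12 and P2ry13, neighbours on chromosome 3, had r of 0.911 (rho of 0.874). P2ry12 and Cx3cr1, on different chromosomes, had r of 0.899 (rho of 0.908), and Trem2 and its adaptor Tyrobp r of 0.894 (rho of 0.898).

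The border macrophage members, Lyz2 and Cd74 followed the rest less closely in both hemispheres, and Olfml3, Ptprc and Irf8 did so ipsilaterally. Pf4 had r of 0.18 ipsilaterally without mouse 9_14 and 0.0024 contralaterally, Mrc1 0.179 and 0.38, and Cd163 −0.329 and 0.375. Lyz2 had r of 0.44 and 0.492, and Cd74 0.668 and 0.524. The homeostatic member Olfml3 had r of 0.425 and 0.714, Ptprc 0.445 and 0.742, and Irf8 0.631 and 0.824. Cd74 instead followed the MHC class II chains H2-Aa and H2-Ab1, with r of 0.977 and 0.962 over 36 libraries, against 0.447 with C1qa. Mrc1, Cd163 and Ptprc were below 1 TPM on average. The difference between these correlations was not tested.

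**Figure D5:**
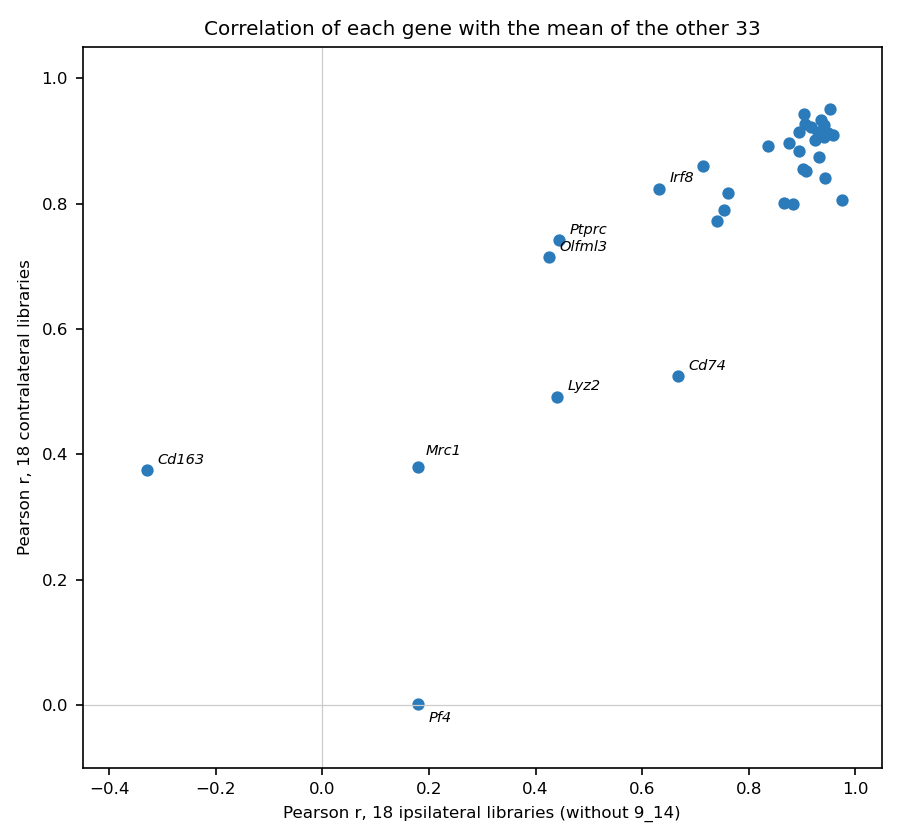
Pearson r of each member's deviations from group means with the mean of the other 33 members, ipsilateral without PTE- mouse 9_14 (x axis, 18 libraries) and contralateral (y axis, 18 libraries). Above 0.8 lie 22 members ipsilaterally and 25 contralaterally, while Pf4, Mrc1, Cd163 and Lyz2 lie below 0.5 in both.

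Among genes outside all lists, Pld4, a phospholipase D family exonuclease of myeloid cells, followed the mean of the members in both hemispheres (r = 0.892 ipsilaterally without mouse 9_14 and 0.882 contralaterally). With mouse 9_14 the 6 nearest ipsilateral genes were Tbx1, Pld4, Lgals9, Isg15, Lst1 and Rgs10 (r from 0.929 to 0.899). Contralaterally they were Pld4, Ctnnb1, Lst1, Tgfb3, Deaf1 and Cpe (r from 0.882 to 0.818). Without mouse 9_14 the ipsilateral list was Pld4, Tbx1, Plekhb1, Lgals9, Cdkn1c and Slc38a5 (r from 0.892 to 0.811).

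The mean level of the members was set side by side for the hemispheres of a mouse. Over the 17 mice with both, it had r of 0.63 and rho of 0.431. It had r of 0.199 over the 15 mice left without the pair farthest from the median, sham mice 9_10 and 9_11, so for the mean level the relation rested on them. Within the 9 PTE- mice r was −0.268 and rho 0.133, and r was 0.54 over the 7 mice left without the pair farthest from the median. The hemispheres of a mouse differed by a median of 0.404 (0.0232 to 1.26), and different mice of a group in 1 hemisphere by a median of 0.563 (up to 3.48, 113 pairs). The 113 pairs include the ipsilateral library of mouse 9_14, which has no part in the differences between hemispheres. The largest, 3.48, lay between mouse 9_14 (0.46) and mouse 9_20 (3.94). For single members, the deviations from group means in the hemispheres of the 17 mice had a median r of 0.562 (0.137 to 0.812). It was above 0.5 for 26 of the 34. Without the 2 mice farthest from the ipsilateral median of each gene, r varied between members. It was 0.766 for Tmem119, 0.701 for Lyz2 and 0.67 for Cd74, but 0.0115 for Cx3cr1, 0.151 for Csf1r and 0.22 for Trem2.

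The wider microglial programme was described with further lists. Of 5 ligands of the members' receptors, among them Csf1 and Il34, which bind CSF1R, and the fractalkine gene Cx3cl1, 4 were tested and 0 were called in any of the 4 comparisons of groups. Ipsilateral Il34 had a mean of 33.7 ± 6.41 TPM (SD, n = 14) after injury and of 36.1 ± 13.5 TPM (SD, n = 5) after sham surgery, and the means of Csf1 were 26.02 ± 6.59 and 25.3 ± 10.3 TPM. Of 10 genes that signal below the members' receptors, 1 or 2 passed the filter, and 1 was called: Inpp5d, the phosphatase SHIP1, at −0.53 ± 0.24 (limma p = 0.0398, adjusted p = 0.978) in contralateral injured against sham mice. Its means were 3.66 ± 1.95 TPM (SD, n = 13) and 5.39 ± 0.911 TPM (SD, n = 5). It therefore passed the filter only through the sham group, in which it was higher. In that comparison 4.05% of all tested genes were called. Of 14 other homeostatic microglia genes, 6 to 8 were tested and 0 called.

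Of 15 genes raised in disease-associated microglia, 7 were tested ipsilaterally after CCI and 1 was called, Lgals3, which encodes galectin-3, at 0.95 ± 0.21 (limma p = 0.000217, adjusted p = 0.453). Of all tested genes 1.62% were called in that comparison. The mean of Lgals3 was 40.7 ± 11.8 TPM (SD, n = 14) after injury, against 20.3 ± 5.15 TPM (SD, n = 5) after sham surgery. The CCI effect on Lgals3 was larger ipsilaterally than contralaterally by 0.83 ± 0.28 (limma p = 0.00512, adjusted p = 0.99998). In PTE- mice Lgals3 was called higher on the injured side at 0.62 ± 0.18 (limma p = 0.00213, adjusted p = 0.971). Neither fit paired the hemispheres of a mouse. Without mouse 9_14 the log2 values of Lgals3 were 0.92 after CCI, 0.81 for the difference between hemispheres and 0.59 in PTE- mice, each called. It was at 22.25 TPM or more in all injured ipsilateral libraries, including that of mouse 9_14, in which 27 members were listed at 0. Gfap, the astrocyte intermediate filament, was called in the same comparison at 1.18 ± 0.29 (limma p = 0.000523, adjusted p = 0.909), and the cell source of the Lgals3 value was not tested. The list as a whole followed the members with r of 0.333 ipsilaterally without mouse 9_14 and 0.528 contralaterally, against 0.847 and 0.914 for the signalling genes and 0.764 and 0.882 for the other homeostatic genes.

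Of 6 MHC class II genes 4 were tested, and H2-DMa, which loads peptide, was called at 0.48 ± 0.20 (limma p = 0.0309, adjusted p = 0.999) in contralateral PTE+ mice. In that comparison 2.79% of all tested genes were called. The mean of H2-DMa was 16.3 ± 3.21 TPM in the 4 PTE+ libraries, against 11.6 ± 3.14 TPM in the 9 PTE- libraries (SD). Of 9 cytokines and chemokines of microglia 0 were called between groups, and those that did not pass the filter could not be called. Ccl4, which is among the 9, was reported by the study as lower in ipsilateral PTE+ mice by its test of counts. Cxcl10 was called between the hemispheres of PTE+ mice at 1.23 ± 0.31 (limma p = 0.00227, adjusted p = 0.9999). Its means were 10.4 ± 1.72 and 4.16 ± 2.05 TPM (SD, n = 4 each), ipsilateral first. It passed the filter only through the ipsilateral libraries, and 1.62% of all tested genes were called there. Markers of blood cells were low. The 10 lymphocyte genes summed to 0.1 to 18.1 TPM, and of 10 monocyte and neutrophil genes, which summed to 3.3 to 45.2 TPM, S100a9 was called at −1.15 ± 0.46 (limma p = 0.0203, adjusted p = 0.978) in contralateral injured against sham mice. Of all tested genes 4.05% were called there.

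Markers of other cells stood beside these results. Oligodendrocyte markers, summing to 524 to 4481 TPM, included 4 called lower ipsilaterally after CCI, where 1.62% of all tested genes were called in either direction. These were Mog at −1.75, Mag at −1.53, Opalin at −1.23 and Ermn at −0.998 (limma, adjusted p = 0.9997 for each). Dissociation and immediate early genes included 6 of 8 tested that were called lower in ipsilateral PTE+ mice, where 0.573% of all tested genes were called. Among them were Fos at −1.78, Hspa1a at −1.55, Hspa1b at −1.53 and Egr1 at −1.31 (limma, adjusted p = 0.977 for each). Across libraries the mean of the members had r of −0.323 ipsilaterally without mouse 9_14 and −0.52 contralaterally with the immediate early genes, 0.702 and 0.364 with the endothelial markers, and −0.453 and −0.0151 with the astrocyte markers. The part of these in the levels of the members was not tested.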

How the data were processed

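The labels describe RNA from cortical astrocytes of sham, PTE+ and PTE- mice, 37 libraries from 20 mice. The study isolated cells with ACSA-2 beads after papain digestion and made libraries with a SMART-Seq v4 kit, which does not mark strand. Per the labels, the submitters' processing notes name Trim Galore 0.6.4, RSEM 1.2.28, Bowtie2 2.4.1, DESeq2 1.36.0 and the build mm10. The annotation release is not given in the sources used here. The authors deposited TPM values, 1 table per hemisphere, in which every library sums to the same total, so read depth is unknown and no counting interval can be given.

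TPM were transformed as log2(TPM + 1) and limma 3.58.1 (trend, two-sided) in R 4.3.3 was fitted to the genes whose mean exceeded 5 TPM in 1 or more of the groups. A gene near that limit could therefore enter a test only through the group in which it was higher. Calls needed p below 0.05 before adjustment together with a change of 1.2-fold or more, as in the study, which tested counts. A fold change on this scale understates that of low genes. Single members were also tested by exact permutation of libraries, and hemispheres by exact sign flips over mice. Exact tests used numpy 2.4.6 under Python 3.11.15, tables pandas 2.3.3 and figures matplotlib 3.10.9, and the fits were tested on simulated data. Of 21975 identifiers 21856 matched a symbol in GENCODE vM21.

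The members and the lists were chosen with earlier results of these data known. Values in full are given for members called in a comparison, for P2ry12, Cx3cr1, Csf1r, C1qa, Trem2, Tyrobp, Cd68, Lyz2, Cd74 and Mrc1, and for Itgam. Genes of other lists are named where called, at most 4 per list and comparison, and outside all lists the 6 genes per hemisphere that correlated most with the mean of the members. The ligands Csf1 and Il34 and the other members named were chosen after their values were seen. The mouse name in the labels pairs the hemispheres: over 10874 genes, deviations from group means of the 17 pairs correlated with a median r of 0.396 (0.0409 to 0.675), against −0.0721 between different mice (114 pairs). Alternatives were other pseudocounts, filters, scalings, thresholds and weights, and the homeostatic members, the mouse name prefix or the mouse in the model. Each library was also left out, or each mouse where hemispheres were compared. The covariate and the weights without mouse 9_14 were added after seeing the data.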

Additional observations from a re-analysis of the deposited data

Results flagged for a closer look

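Among ipsilateral PTE- libraries, that of mouse 9_14 was the lowest by a gap wider than Dixon's 95% limit for 7 of the values examined, all as log2(TPM + 1). The mean over the members was 0.46 there and 2.41 in the next lowest library. Csf1r was 0 (next lowest 2.60), C1qa 0 (3.76), Tyrobp 0 (4.68), Cd68 0 (2.85), Lyz2 0 (4.78) and Pf4 0 (1.79). These were 7 of 78 groups of values examined, and chance flags about 1 in 20.

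With the mouse as a block, the effect of CCI on Lyz2 was larger ipsilaterally than contralaterally by 0.54 on the log2 scale (limma p = 0.0195, adjusted p = 0.75), which is a difference between the hemispheres in the same contrast. The fit used the 17 mice with both hemispheres and so leaves out mouse 9_14. Without the block the value for Lyz2 was 0.08 (limma p = 0.921), and with the mouse as a random effect it was 0.35 (limma p = 0.47).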

How the results depend on the processing

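Counts of called members rested on few libraries. Leaving out 1 library at a time gave 0 to 4 called members for ipsilateral CCI vs. sham. The 4 were without sham mouse 9_10 (1.91% of all tested genes called). It gave 0 to 1 for ipsilateral PTE+ vs. PTE- (1 without mouse 9_14, 1.89%). It gave 0 to 6 for contralateral CCI vs. sham (6 without sham mouse 9_10, 2.94%) and 0 to 2 for contralateral PTE+ vs. PTE-. Leaving out 1 mouse at a time, with all of its libraries, gave 0 to 2 between hemispheres in PTE- mice (2 without mouse 9_14, 3.48%). It gave 0 to 1 in PTE+ mice, and 0 for the other 3 comparisons. For the counts without a share, the share of all tested genes is not given here, and no conclusion is drawn from them. The shares for array weights, the covariate and the blocks stand with those results above. Array weights called Olfml3 in place of Trem2 for contralateral CCI vs. sham, and gave 1, 1 and 2 called members for ipsilateral CCI vs. sham, ipsilateral and contralateral PTE+ vs. PTE-, and 1 between hemispheres in each of PTE- and PTE+ mice. Quantile normalization gave 1 for ipsilateral CCI vs. sham and 0 for contralateral PTE+ vs. PTE-. The homeostatic covariate gave 2 and 4 for ipsilateral and contralateral CCI vs. sham, counts that include Fcrls, Olfml3 and P2ry12, which are part of it. For contralateral CCI vs. sham, no filter, a threshold on adjusted p and a fit of all 3 groups each gave 0, and the threshold on adjusted p gave 0 for contralateral PTE+ vs. PTE-. Array weights without mouse 9_14, added after seeing the data, gave 1, 1 and 1 for ipsilateral CCI vs. sham, ipsilateral PTE+ vs. PTE- and the hemispheres of PTE- mice, and the covariate without that mouse 2 for ipsilateral CCI vs. sham. With the mouse as a replicate block, 2 members were called between hemispheres in PTE- mice, as without mouse 9_14 and no block, and 1 for the CCI effect between hemispheres. With the mouse as a random effect both counts were 0, and neither block changed another count. Tyrobp between hemispheres in PTE- mice was −0.08, and 0.49 with the block. Leaving out 1 mouse at a time moved it from −0.25 to 0.49, the latter without mouse 9_14. The mean log2 level of the members in contralateral PTE- mice was 2.71 with a pseudocount of 0.1 and 3.06 with 1. The cause of these changes was not tested. Of 2432 alternative values for single genes 317 had the opposite sign of the main one, as did 45 of 212 medians over the members. TPM hold no depth, so the limit that depth sets on members below 1 TPM is unknown.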
